A study of Mus musculus with 2 samples.

Results

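Regulatory DNA can lie inside exons. A stretch of exon that is open chromatin carries the code of a protein, or of a messenger RNA tail, and at the same time can hold binding sites for transcription factors. Here the accessible regions whose strongest point lies in an exon, far from any promoter, were described in mouse megakaryocyte-erythroid progenitors (MEP), the marrow precursors of red cells and platelets. Accessible regions on the 19 numbered chromosomes, X and Y were taken from the authors' conservative peak list, and overlapping or touching peaks were merged. A region was kept when the summit of its strongest peak lay in an exon of a protein-coding gene (GENCODE M21) and more than 5 kb from every start site (TSS) of a protein-coding transcript. Of 46200 regions in the list, 1399 met these conditions (3.03%, Wilson 95% interval 2.88 to 3.19). Their summits fell in coding sequence in 492 regions, in a 3' untranslated exon in 541 and in a 5' untranslated exon in 12. The other 354 lay in exons of other transcripts of these genes, 265 of them in transcripts with a retained intron, 62 in processed transcripts and 27 in transcripts marked for nonsense-mediated decay.

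The study measured chromatin accessibility by ATAC-seq, in which the Tn5 transposase cuts open chromatin and inserts sequencing adapters. Its single group holds 2 libraries, replicates 1 and 2, each from 50000 primary MEP. The mice were C57BL/6J males, 5 to 6 weeks old, with no treatment and no altered gene named. Both libraries name one donor entry, and nothing states that they came from separate animals, so differences between them may be technical. With 1 group no test over samples was possible, and without read counts the depth is unknown. Intervals on shares are Wilson 95% intervals and cover counting error only. As a check of the label, promoters (peaks overlapping 1 kb to either side of a protein-coding TSS) were sought in the stricter lists of both libraries. They were present for 19 of 23 erythroid genes, 16 of 24 blood transcription factors and 4 of 24 megakaryocyte and platelet genes. Among other blood cells they were present for 3 of 24 granulocyte and macrophage genes, 4 of 23 lymphoid genes and 3 of 15 mast cell, basophil and eosinophil genes. Genes of other tissues had 5 of 24. The background over 21938 protein-coding genes was 45.5%, and the megakaryocyte and platelet genes were below it, like the genes of other tissues. In the longer lists of both libraries promoters were present for 21 of 23 erythroid genes, 23 of 24 blood transcription factors and 14 of 24 megakaryocyte and platelet genes. The other lists had 4 of 24 granulocyte and macrophage genes, 6 of 23 lymphoid genes, 6 of 15 mast cell, basophil and eosinophil genes and 8 of 24 genes of other tissues. The background there was 56.3%, so the megakaryocyte and platelet genes were near it.

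Transcription factors of the GATA family bind short words that contain the letters GATA. GATA1 and GATA2 are the main ones in these progenitors, often beside TAL1, which binds an E-box a short distance upstream of the GATA word. The paired arrangement was searched here as CTG, the last letters of an E-box, followed, after 7 or 8 bases, by a GATA word, and is called the E-box-GATA composite. A full E-box was not required. CTCF, a zinc finger protein, binds a longer motif and marks insulators and the anchors of chromatin loops. In coding sequence such a word also has to spell amino acids, so it is constrained by both uses.

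The regions below were chosen because they show how binding words sit within coding sequence. Each line gives the window around the E-box-GATA composite of the 5 coding regions of highest fold that hold one, and of one of the Angpt1 regions described further on. Sequences are read 5' to 3' from the GRCm38 genome (mm10) on the strand named, and capitals mark the composite.
Ganc (chr2:120446550-120446579, minus strand): ttggctgCTGGAGCTCCTGATAAgggtgcc
Lims1 (chr10:58412446-58412475, plus strand): tactgtCTGCCATGCCATGATAAgatgggg
Ptprk (chr10:28566567-28566596, minus strand): ggtgcagCTGTCCTGTCTGATAAggggact
Tab3 (chrX:85614921-85614950, minus strand): ctagatgCTGTGTAAGGGAGATAGgctacc
P4ha1 (chr10:59348306-59348335, plus strand): ggagagCTGTCTACTGTAGATAAagtctct
Angpt1 (chr15:42523532-42523561, plus strand): gtctgctCTGCAGTCTGAGATAAgagactg
The composite lay wholly in coding sequence in Lims1, Ptprk, Tab3, P4ha1 and Angpt1. In Ganc it lay in the intron just after the exon that holds the summit. Its centre was 4.50 bp from the summit in Ptprk, 15.5 bp in Angpt1, 27.5 bp in Ganc, 53.0 bp in P4ha1, 60.0 bp in Tab3 and 77.0 bp in Lims1.

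The next set shows single GATA words (capitals) at members named below. It includes 1 at the border of an exon, and 2 in each of the coding and 3' untranslated classes that lie within exons.
Mgarp, coding (chr3:51389096-51389125, minus strand): agcctgagctgaAGATAAccgaggcttccc
CN725425, coding (chr15:91260776-91260805, plus strand): gtagtccagtgtTGATAAgagaaaaggagt
Bcl11a, across the exon edge (chr11:24158239-24158268, plus strand): ggtttctttcacAGATAAacttctgcactg
Pla2r1, 3' untranslated (chr2:60418226-60418255, plus strand): ttcaggttgtacTGATAAggatcccagttt
Glrx5, 3' untranslated (chr12:105041172-105041201, minus strand): ctgtacctcagcTGATAAagtgcttgcctg
Words of other factors are shown for 3 members, with the CTCF match in capitals for Ror2 and Skap2 and a KLF match for Myb.
Ror2, 3' untranslated (chr13:53109743-53109772, plus strand): catcctccgCCAGCAGGGGGCtcacggagc
Skap2, 3' untranslated (chr6:51858059-51858088, minus strand): cctaagtggCCAGCAGATGGCagcagcttg
Myb, coding (chr10:21145029-21145058, minus strand): ggagagcctagCCCCTCCCtctttgctgac
In Pla2r1, Ror2 and Skap2 the match was centred 22.5, 15.5 and 18.5 bp from the summit.

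Accessible summits were denser in distal exons than in introns or intergenic sequence. Coding sequence more than 5 kb from a TSS spans 21.7 Mb and held 22.7 summits per Mb (exact Poisson 95% interval 20.7 to 24.8). The 23.7 Mb of 3' untranslated sequence held 22.9 per Mb (21 to 24.9). Distal introns (13511 regions) held 16.9 per Mb (16.6 to 17.2) and distal intergenic sequence (13095 regions) 8.61 per Mb (8.47 to 8.76). Exons of other transcripts held 27.1 per Mb (24.3 to 30.0), and their intervals did not overlap those of introns. The lists of single libraries are shorter, and in both of them exons were denser than introns and introns denser than intergenic sequence. Coding and 3' untranslated exons changed places between the libraries. Replicate 1 alone gave 11.2 coding, 10.8 3' untranslated and 8.07 intronic summits per Mb, and replicate 2 alone 10.7, 11.5 and 8.96. Because exons make up little of the distal sequence, coding regions were still 1.76% and 3' untranslated regions 1.93% of all distal regions. Distance to a start site was not held equal. The median to a protein-coding TSS was 14772 bp for coding, 14570 bp for 3' untranslated, 22082 bp for intronic and 30984 bp for intergenic regions. A start of any transcript was within 1 kb for 18.1% of coding and 6.90% of intronic summits. What this contributes to the densities was not tested.

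**Figure D1:**
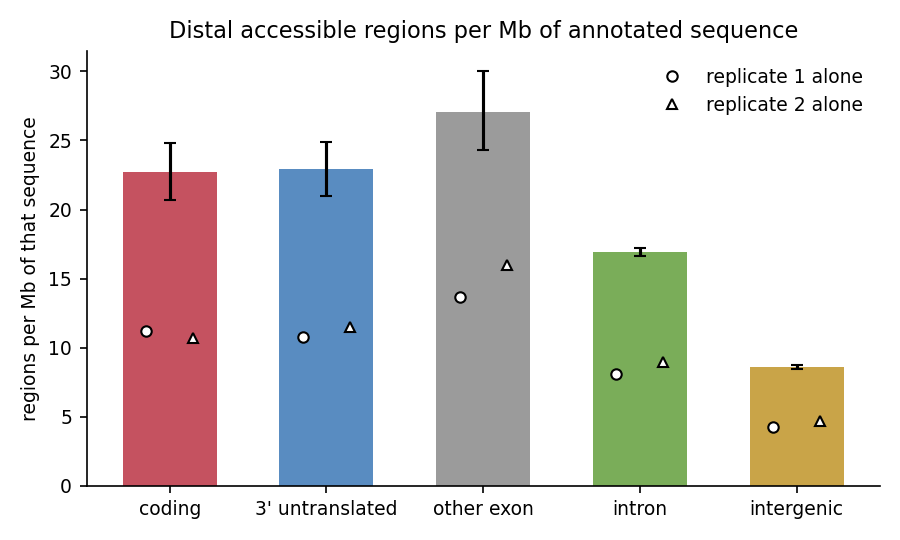
Distal summits per Mb of each kind of sequence more than 5 kb from a protein-coding TSS. Bars give the conservative list with exact Poisson 95% intervals, and open symbols each library's own stricter list; coding and 3' untranslated bars stand at 22.7 and 22.9 per Mb and introns at 16.9, and in either library alone the intron value is below both.

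Coding and 3' untranslated members were placed differently with respect to their exons. The exon under a coding summit had a median length of 190 bp (quartiles 134 and 614), against 135 bp (94.0 and 203) over 151588 distinct exons with distal coding sequence. These medians are not like for like. The second counts each exon once, while a longer exon has more bases in which a summit can fall. In 312 of 492 coding regions the region covered the whole exon, and 414 also reached sequence outside exons. The median coding region therefore had 42.8% of its 485 bp in coding sequence, with its summit 48.5 bp from the nearest exon edge. The exon was internal in 378 regions and the last of its transcript in 114. A 3' untranslated summit lay in the last exon in 539 of 541 regions. That exon had a median length of 2567 bp, and 452 of these regions lay wholly within exons. Their summits lay a median of 1391 bp before the end of the gene (quartiles 578 and 3032). A further 1124 distal regions touched coding sequence by 1 bp or more but had their summit in an intron, so 492 of the 1869 distal regions that touch coding sequence are members by it.

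Density did not rise steadily with the length of the coding exon. Exons of 150 bp or shorter held 19.9 summits per Mb (16.9 to 23.2), longer ones of up to 500 bp 26.2 (22.7 to 30.1) and exons beyond that 22.0 (18.5 to 26.0). All 3 values exceeded the intronic density, and the interval of the shortest exons began at the intronic value of 16.9. The regions in exons over 500 bp had a median of 96.7% of their length inside exons, against 32.5% in the shortest class. The bands were chosen after the data were seen.

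Signal strength in exons was like that of other distal regions and lower than at promoters. The values used are the authors' fold of each peak over its local background. In the conservative list the median fold was 6.26 for coding regions (quartiles 5.13 and 7.87), 6.23 for 3' untranslated regions (5.06 and 7.83) and 6.88 for exons of other transcripts, against 6.41 in introns, 6.67 in intergenic sequence and 7.66 at promoters. In the longer list of each library the coding median was 5.63 in replicate 1 and 6.29 in replicate 2, a mean of 5.96 ± 0.467 (SD, n = 2). The 3' untranslated medians were 5.53 and 6.28, a mean of 5.91 ± 0.533. The 12 regions in 5' untranslated exons had a median joint fold of 7.01 (quartiles 6.18 and 8.42), and elsewhere these 12 enter only the totals over all members. The intronic median was 5.77 in replicate 1 and 6.30 in replicate 2, a mean of 6.04 ± 0.373. In each library the coding and 3' untranslated medians were slightly below it, and in replicate 2 nearly equal to it. These SDs describe the shift between libraries and do not measure the error of a difference between classes. The fold was higher in replicate 2 for 77.1% of coding and 78.3% of 3' untranslated members found in both longer lists. That share was 71.7% over all conservative regions, so most of this tilt was shared by the whole list, and folds were not scaled between libraries.

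Both libraries contained nearly all members at the looser threshold, as they did for the conservative list as a whole. That list was made from both libraries, so the overlap was in part set by the choice of regions. Coding regions were overlapped by a peak of both pseudoreplicated (longer) lists in 454 of 492 cases (92.3%, 89.6 to 94.3) and 3' untranslated regions in 502 of 541 (92.8%, 90.3 to 94.7), against a background of 92.6% of all conservative regions. Both IDR-thresholded lists, the stricter ones based on the irreproducible discovery rate of each library by itself, held 192 coding regions (39.0%, 34.8 to 43.4) and 197 3' untranslated regions (36.4%, 32.5 to 40.6). The background there was 48.6%, which includes promoters, and the intronic share was 39.0%. Exonic members thus recurred about as often as distal introns. Neither longer list held 6 coding and 11 3' untranslated members.

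**Figure D2:**
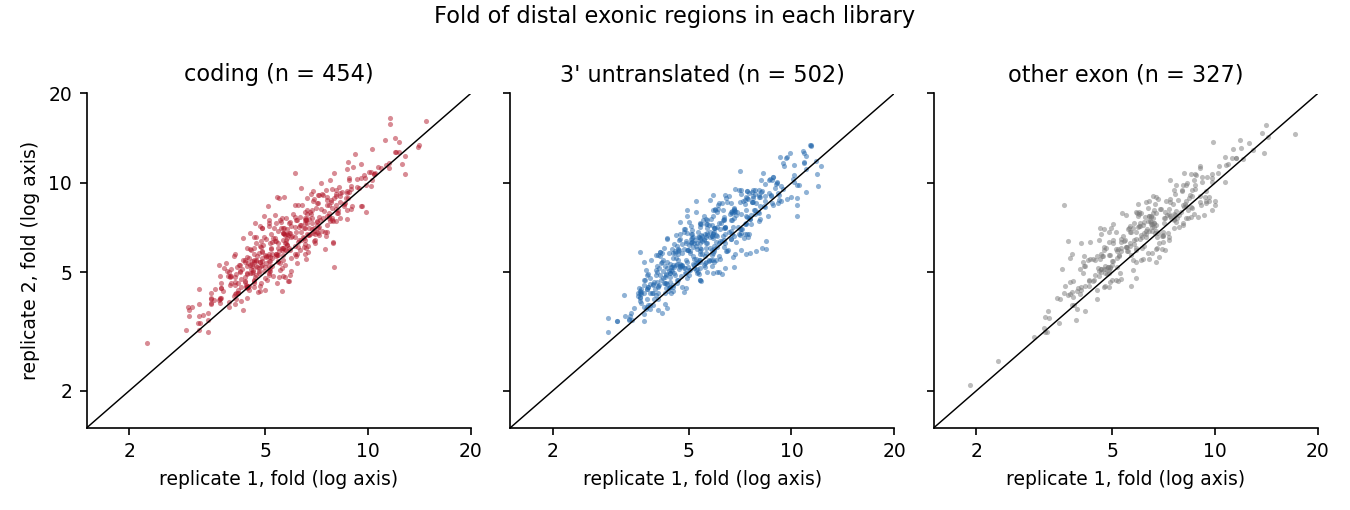
Fold over local background in replicate 1 (horizontal, log axis) and replicate 2 (vertical, log axis) for members in both longer lists, one point per region, with the line of equal values. Points lie mostly above the line, with replicate 2 higher for 77.1% of coding and 78.3% of 3' untranslated members.

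The 8 coding regions of highest joint fold among those in both longer lists, chosen by that value, are given as a description. The region in exon 17 of 24 of Ganc (chr2:120446208-120446887), which encodes a neutral alpha-glucosidase, had a joint fold of 17.1, with 14.8 in replicate 1 and 16.1 in replicate 2. Its summit lay inside an exon of 244 bp and 35.9% of the region was coding. Abi2, which encodes an actin-regulating adaptor (exon 6 of 12, chr1:60447019-60447626), had folds of 14.0 and 13.2 in replicates 1 and 2. Both libraries gave these regions a fold above 13. Bmpr1b, a bone morphogenetic protein receptor gene (exon 6 of 11, chr3:141862448-141863139), had 11.6 and 16.6, and CN725425 (exon 13 of 13, chr15:91260447-91261031) 11.6 and 15.8. The libraries differed most in these cases, with SDs of 3.58 and 2.97. In Mgarp, whose product is a mitochondrial protein (exon 5 of 5, chr3:51388743-51389435), the values were 14.1 and 13.4, and 82.1% of the region was coding.

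Lims1, the gene of the focal adhesion adaptor PINCH1 (exon 6 of 11, chr10:58411851-58412882), had folds of 12.3 in replicate 1 and 13.7 in replicate 2. Its region was 1032 bp wide and only 14.6% of it was coding. Capn2, which encodes the large subunit of a calpain protease (exon 6 of 21, chr1:182489773-182490391), had 11.2 and 14.0. Its summit lay 27547 bp from the nearest protein-coding TSS but 52 bp from the start of another annotated transcript. The cytochrome P450 gene Cyp4f16 (exon 13 of 13, chr17:32550743-32551607) had 12 and 14.2. The 100 bp to either side of that summit have 1 other copy of at least 90% identity in the genome, so reads there could come from either place. Of the 8, all were in both stricter lists, against 39.0% of all coding members. Choosing by high fold among regions in both longer lists made this likely in advance.

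Among 3' untranslated members in both longer lists the highest folds were lower than in coding sequence on the joint list. Pla2r1, a receptor for secreted phospholipases (exon 30 of 30, chr2:60418075-60418574), had 11.4 in replicate 1 and 13.4 in replicate 2, with a joint fold of 13.9. Vasp, an actin regulator of platelets and other cells (chr7:19257365-19258030), had 11.3 and 13.4. Cd46, a regulator of complement (chr1:195040294-195040764), had 10.9 and 12.6. The region in Cd46 held none of the 9 motifs searched, and that in Pla2r1 held a GATA word only. Mmp25, a membrane-bound matrix protease (chr17:23630054-23630703), had 12.2 and 11.4, and Coa5, a factor for assembly of cytochrome c oxidase (chr1:37419382-37420129), 9.89 and 12.6. Ror2, a Wnt receptor gene (chr13:53109544-53109968), had 9.66 and 12.1, and Skap2, a Src kinase adaptor (chr6:51857720-51858211), 11.0 and 11.1. Both of these regions carry the CTCF matches printed above.

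The Lars2 region stands apart in its sequence. It lies in the last exon of this mitochondrial leucyl-tRNA synthetase gene (chr9:123461808-123462230) and had folds of 11.4 and 13.3. The 100 bp to either side of its summit have 5 other near-identical copies on the assembled chromosomes. Its joint fold of 13.3 and its motif matches therefore cannot be assigned to this place alone, and what the copies contribute was not tested. Copies outside the assembled chromosomes were not counted, so there may be more.

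**Figure D3:**
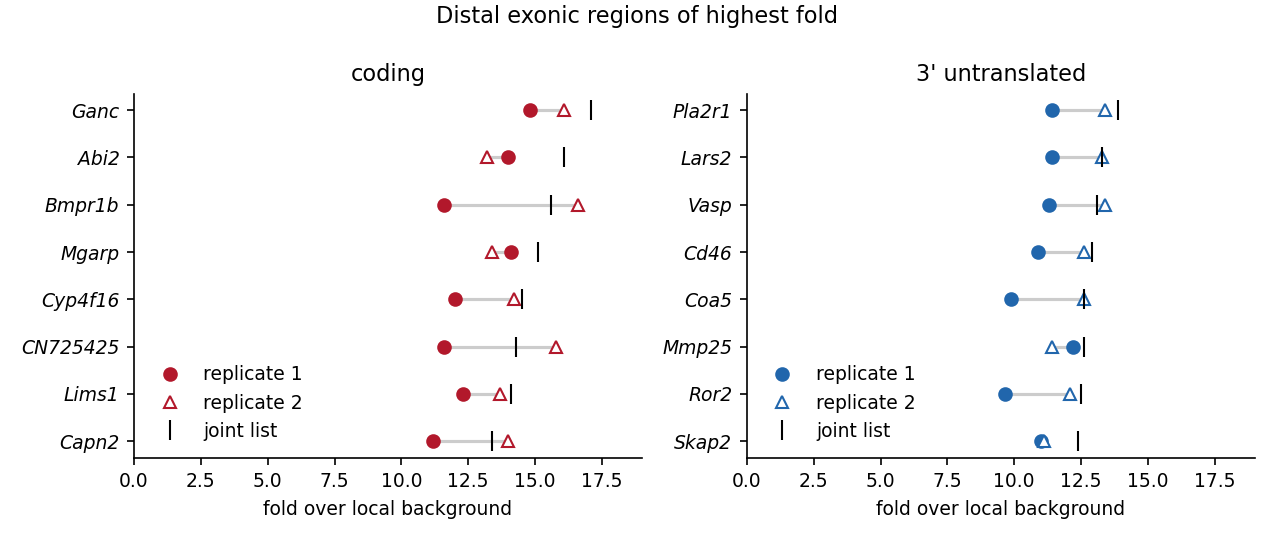
Fold over local background (horizontal axis, from 0) of the 8 coding and the 8 3' untranslated regions of highest joint fold among those in both longer lists. Filled circles are replicate 1, open triangles replicate 2 and vertical ticks the joint list; the coding regions run from 13.4 in Capn2 to 17.1 in Ganc and the 3' untranslated ones from 12.4 in Skap2 to 13.9 in Pla2r1.

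Near-identical copies were rare among members as a whole. Another copy was found for 19 of 492 coding (3.86%, 2.49 to 5.95) and 34 of 541 3' untranslated summit windows (6.28%, 4.53 to 8.65), against 1.42% (1.23 to 1.63) of distal introns and 4.77% of intergenic regions. None of the 1399 windows aligned to mitochondrial DNA by the same search, and 6 were masked as repeats and not aligned. Annotated repeats covered a median of 5.76% of a coding region's sequence and 7.40% of a 3' untranslated region's, against 9.89% in introns.

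Motif matches were counted within 100 bp to either side of each summit, on both strands. The GATA words searched were AGATAA and AGATAG and the forms of both with T as first letter, which also make up the second part of the composite. A match is only a match to letters. GATA words were present at 210 of 492 coding summits (42.7%, 38.4 to 47.1) and 258 of 541 3' untranslated summits (47.7%, 43.5 to 51.9). Exons of other transcripts had one at 58.2% (53.0 to 63.2). The same share was 60.5% (59.6 to 61.3) in introns, 48.5% in intergenic regions and 16.7% at promoters. Windows 500 bp to either side held a word in 28.9% for coding and 26.6% for 3' untranslated regions, so both classes exceeded their own flanks while remaining below introns. The composite was found at 66 coding summits (13.4%, 10.7 to 16.7), against 1.83% of flanks, and at 50 3' untranslated ones (9.24%, 7.08 to 12). Its intronic share of 12.7% lay inside the coding interval and above the 3' untranslated one. These composite shares moved with the setting. At region midpoints the coding share was 8.13%, against 9.89% in introns, and within 50 bp of the summit it was 8.94%, against 8.70%. Without replicate 2 the 3' untranslated share was 16.5%, against 16.4% in introns, and without replicate 1 it was 12.8%, against 15.9%. The order of exonic classes and introns for the composite was thus not stable.

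Base composition moved with these shares. GC content had a median of 55.2% at coding summits, 50.7% at 3' untranslated ones and 49.8% in introns. When regions were divided by GC content, below 47.3%, up to 52.7% and above, coding summits with a GATA word made up 67.9%, 55.6% and 32.1%, and intronic ones 71.1%, 62.7% and 43.9%. In the group of highest GC the intervals did not overlap (27.1 to 37.4 and 42.4 to 45.5). In the 2 groups of lower GC the intronic share lay within the coding interval. The 3' untranslated shares were 59.5%, 52.7% and 34.5%, below introns in each group, with intervals that did not overlap. Intergenic shares were 61.8%, 53.0% and 31.2%, inside the coding and the 3' untranslated intervals in every group. Within GC groups the exonic shares were thus like those of intergenic regions, and introns were the higher class except where their share lay inside the coding interval. This division was chosen after the data were seen.

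GATA words at coding summits lay mostly in the code itself, which the choice of regions in part fixes. Each window was centred on a coding base, and the coding share of the windows was not measured. Of the matches, 213 were wholly coding, 93 were outside coding sequence and 2 crossed an exon edge, as in Bcl11a. In 157 of the 210 coding regions with a word, at least 1 lay wholly in coding sequence. Of the coding words, 116 ran on the strand of the gene and 97 on the other. For the sense words the reading frame is constrained by the genetic code: each of the 4 words contains a stop codon when its first base is the first of a codon. As the code requires, 0 of 116 lay in that frame, 44 began at the second base of a codon and 72 at the third. Composites were wholly coding in 50 cases, 25 sense and 25 antisense.

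CTCF matches followed another order among the classes. They were present at 78 of 541 3' untranslated summits (14.4%, 11.7 to 17.6), against 38 of 492 coding summits (7.72%, 5.68 to 10.4), 8.59% (8.13 to 9.08) of introns, 12.3% (11.8 to 12.9) of intergenic regions and 1.58% of promoters. The share above introns was present in each library's own list, at 12.5% against 6.65% in replicate 1 and 10.6% against 7.40% in replicate 2. That above intergenic regions was not, with 11.3% of intergenic regions in replicate 2. Matches were concentrated near the summit: the bin of 20 bp centred 10 bp downstream on the plus strand held 64.7 per 1000 3' untranslated regions, 16.3 per 1000 coding and 29.4 per 1000 intronic ones. The bin on the other side held 37.0, 24.4 and 28, in the same order of classes. At coding summits 29 of the matches were wholly coding, 16 sense and 13 antisense.

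**Figure D4:**
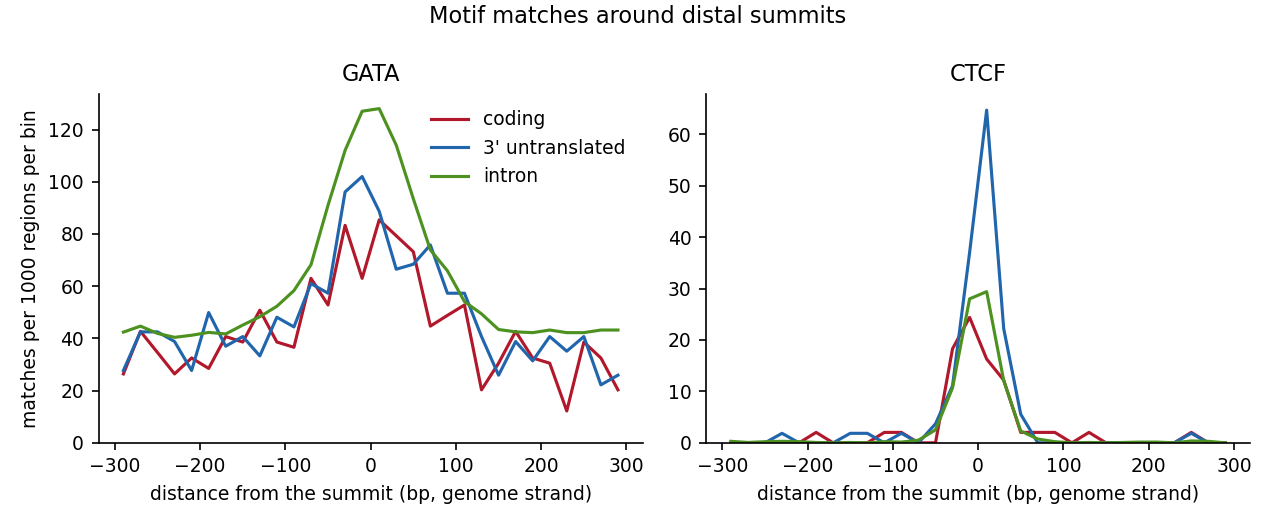
Matches per 1000 regions in bins of 20 bp by distance from the summit (horizontal axis, bp), for GATA (left) and CTCF (right) in coding, 3' untranslated and intronic regions. The GATA curves of exonic classes peak lower than that of introns, and the CTCF curve of 3' untranslated regions peaks at 64.7 per 1000 against 29.4 in introns.

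Among the other words, that of ETS factors, CNGGAAG (N is any base), differed between coding regions and introns. It was present at 127 coding summits (25.8%, 22.1 to 29.9) and 18.5% (17.8 to 19.1) of introns, against 14.5% of coding flanks. Intergenic regions had it at 20.1% and promoters at 30.2%. In the group of highest GC the coding share was 30.8% (25.9 to 36.1) and the intronic share 24.1% (22.8 to 25.5). The intergenic share there was 25.3% (24.0 to 26.6), and its interval overlapped the coding one. In the other groups the intronic values of 13.2% and 19.3% lay inside the coding intervals. The KLF word CCNCNCCC was present at 26.2% of coding, 27.7% of 3' untranslated and 23.9% of intronic summits. It was at 25.8% of intergenic regions and at 58.2% of promoters. Within each GC group the coding share was below the intronic one. In the groups of lower GC it was 6.17% against 11.8% and 19.2% against 23.5%, with the intronic share inside the coding interval. In the group of highest GC the coding share was 33.7% (28.6 to 39.1), which overlapped the intronic interval (38.5 to 41.6). The intronic share lay inside the 3' untranslated interval in every group. The RUNX word TGTGGT was at 19.9% of coding, 17.7% (14.8 to 21.2) of 3' untranslated and 22.8% of intronic summits. The AP-1 word TGANTCA was found at 4.07% (2.65 to 6.20) of coding summits, below the 7.35% of introns and near the 5.39% of coding flanks. The STAT pattern TTCNNNGAA was at 3.86% of coding summits, below its flanks (6.30%). The same held in introns (4.45% against 6.11%) and over all regions (4.28% against 5.79%). The CRE word TGACGTCA was at 5 of 492 coding summits (1.02%, 0.435 to 2.36) and at 0 of 541 3' untranslated ones (interval up to 0.705%). It was at 0.386% of all distal regions, which the 3' untranslated interval includes, and at 3.09% of promoters. All 5 coding matches were in the group of highest GC.

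**Figure D5:**
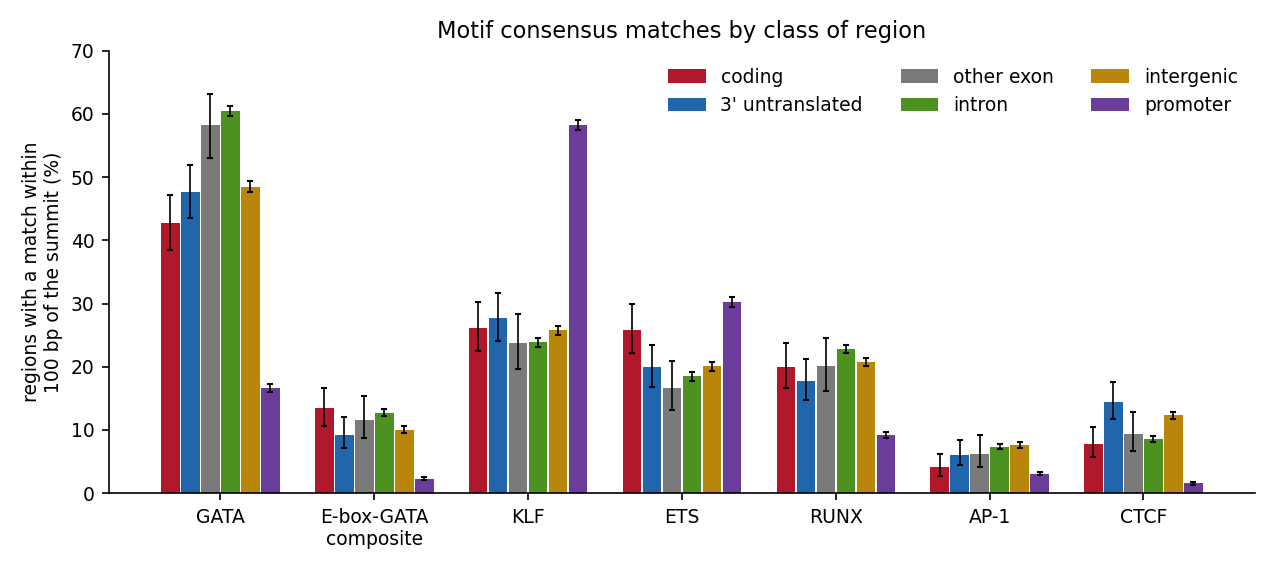
Share of regions with a match within 100 bp of the summit (vertical axis, %) for 7 motifs in 6 classes of region, with Wilson 95% intervals. Exonic classes lie between introns and promoters for GATA, at 42.7% and 47.7%, and 3' untranslated regions are above introns for CTCF.

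Hosts were counted in the gene lists of MEP and of other cells. Of 15635 genes with exon sequence more than 5 kb from a TSS, 1289 held a distal exonic region, a background of 8.24%. Among blood transcription factors the hosts were 2 of 21, Myb and Bcl11a, and among erythroid genes 1 of 15, Sptb. Haem and iron genes had 3 of 18, Cpox, Fech and Glrx5. Megakaryocyte and platelet genes had 2 of 15, Itga2b and Vwf, and stem and progenitor genes 2 of 14, Slamf1 and Angpt1. Hdc was the host among 11 mast cell and basophil genes, and Rbfox3 and Ckm among 20 genes of other tissues. No granulocyte and macrophage gene (of 10) or lymphoid gene (of 18) was a host. With counts this small, no list can be said to stand apart from the background.

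Angpt1, which encodes a ligand of the TIE2 receptor, held 2 coding regions, in exons 8 and 2, which were 238674 bp and 153446 bp from the nearest protein-coding TSS. That in exon 8 of 9 (chr15:42437993-42438749) had folds of 8.90 in replicate 1 and 9.76 in replicate 2, and that in exon 2 (chr15:42522850-42523924) had 7.03 and 8.22. Each had a GATA word within coding sequence, and both were in both stricter lists. Only 17.3% and 14.5% of these regions was coding. Hdc, which encodes the histamine-forming enzyme, had 7.10 and 7.43 in its last exon (chr2:126593855-126594553), with none of the searched motifs.

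Myb, a regulator of progenitor growth, had folds of 5.46 and 5.74 in exon 10 of 16 (chr10:21144930-21145459). Its summit was 13 bp from the start of another annotated transcript and had a KLF and a CRE word. Bcl11a, a repressor of fetal globin genes, had 3.91 and 3.83 in exon 3 of 4 (chr11:24158044-24158598), with a GATA word across the exon edge. Neither region was in a stricter list of either library. The joint fold of Bcl11a, 3.97, was below the lower quartile of coding regions (5.13), and that of Myb, 5.94, above it.

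Genes of haem synthesis and red cell structure held members in 3' untranslated exons and in exons of other transcripts. Glrx5, needed for iron-sulphur clusters, had 6.15 and 5.69 (chr12:105040896-105041403), with a GATA word 11.5 bp from the summit. Cpox, an enzyme of haem synthesis, had 5.89 and 7.72 (chr16:58678717-58679139) and a KLF word. Both were in both stricter lists. Sptb, which encodes the beta spectrin of the red cell membrane, had 2.90 and 3.52 (chr12:76596708-76596969) and was in neither. Fech, whose product inserts iron into haem, held 2 regions in exons of retained-intron transcripts, with joint folds of 5.39 and 3.26.

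For platelet and stem cell genes the values were moderate. Itga2b, which encodes the platelet integrin alpha IIb, had 5.88 and 6.50 in an exon of a processed transcript (chr11:102455640-102456535). Slamf1, which encodes the stem cell marker CD150, had 5.43 and 7.26 in its 3' untranslated exon (chr1:171799520-171799993), with a GATA word. Vwf, which encodes von Willebrand factor, held 3 regions. The coding one, in exon 14 of 52 (chr6:125603116-125603591), had 6.19 and 7.49 and lay 138 bp from the start of another transcript. The others were in retained-intron exons, with joint folds of 6.23 and 3.5, and the former carried a CTCF match.

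Genes known from other tissues also held members. Ckm, the creatine kinase of muscle, had 10.2 in replicate 1 and 11.5 in replicate 2 in its 3' untranslated exon (chr7:19421086-19421707), 27 bp from the start of another annotated transcript. Rbfox3, a neuronal splicing factor gene, had 4.73 and 5.35 (chr11:118490549-118491137). The Ckm values were above the upper quartile of the 3' untranslated class, 7.83 in the joint list.

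Most hosts had a single member. Of 1289 genes, 1187 held 1 distal exonic region, 94 held 2 and 8 held 3. The 8 were Mccc1, Fry, Cd163, Armc9, Vwf, Mast4, Dhodh and Sfi1. Cd163, the haemoglobin receptor of macrophages, had a coding region (chr6:124320397-124320757) with folds of 4.63 and 5.40, a retained-intron region of 5.88 and 5.42, and a 3' untranslated region found in the longer list of replicate 1 only (7.10). Dhodh, an enzyme of pyrimidine synthesis, had 4.60 and 5.01 in coding sequence (chr8:109595906-109596169) and 4.44 and 4.27 in its 3' untranslated exon. In Fry, Mccc1 and Mast4 a single coding region was accompanied by 2 in retained-intron exons. The coding folds were 6.56 and 5.77 in Fry, 5.12 and 5.10 in Mccc1, and 5.70 and 5.31 in Mast4. All 3 regions of Armc9 lay outside coding sequence, with joint folds of 5.24 to 6.04. Sfi1, a centrosome gene, had the lowest values, 2.26 and 2.90 in coding sequence and joint folds of 2.41 and 2.00 elsewhere, and 1 of its regions had another copy in the genome.

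Nprl3 encodes a subunit of a nutrient-sensing complex, and its introns hold enhancers of the neighbouring alpha globin genes. The exonic region there (chr11:32255877-32256820) had folds of 9.01 in replicate 1 and 11.4 in replicate 2 and was in both stricter lists. It belongs to the class of other exons, in the first exon of a processed transcript, whose start is 94 bp away, and 34.0% of it was exonic. A GATA word on the strand of the gene was 6.50 bp from the summit, as part of a composite. The window is printed as an example of a composite in an exon outside coding sequence.
Nprl3, exon of a processed transcript (chr11:32256316-32256345, minus strand): tcagtccCTGGTCTCTTAGATAAgaggcaa

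Starts of other annotated transcripts lay near a share of the members. A start of any transcript of any gene was within 1 kb of the summit for 89 of 492 coding regions (18.1%, 14.9 to 21.7), 43 of 541 3' untranslated regions (7.95%, 5.95 to 10.5) and 133 of 354 in other exons (37.6%, 32.7 to 42.7), against 6.90% of distal introns and 9.07% of intergenic regions. Whether these members act as promoters of such transcripts was not tested. Without them the GATA share was 43.9% for coding and 48.6% for 3' untranslated regions, and the CTCF share 7.44% and 15.3%, a separation added after the data were seen. With the 5 kb limit drawn from the starts of every transcript, 293 coding and 355 3' untranslated regions were left.

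All host genes as 1 group had an open promoter more often than eligible genes in general. In the stricter lists only, hosts of coding regions had one less often than hosts of intronic regions. A promoter was in both stricter lists for 819 of 1289 hosts (63.5%, 60.9 to 66.1), against 63.2% (62.0 to 64.5) of genes with a distal intronic region and 52.0% (51.2 to 52.8) of the 15635 genes with distal exon sequence. The share was 56.5% (52.0 to 60.9) for hosts of coding regions and 62.4% (58.2 to 66.4) for hosts of 3' untranslated regions. The coding interval lay below that of intronic hosts and reached the value of eligible genes, while the 3' untranslated interval included the intronic value. In both longer lists the coding share was 74.1% (69.9 to 77.8), above the 63.8% (63.0 to 64.5) of eligible genes. Its interval there overlapped that of intronic hosts (77.8%, 76.7 to 78.9), so the order depended on the threshold. Hosts also held a distal intronic region more often, in 683 of 1289 genes (53.0%, 50.3 to 55.7) against 33.4% (32.6 to 34.2) of other eligible genes. Gene length was not held equal here. Zinc finger genes named Zfp, Zscan or Zkscan, which have long coding last exons, were hosts in 17 of 359 cases (4.74%, 2.98 to 7.45), below the 8.24% of eligible genes.

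The 5 kb limit cuts through a continuous range of distances. Just beyond it lay a 3' untranslated region of Btbd19, 5007 bp from the nearest TSS with folds of 6.96 and 7.13, and a coding region of Clec4d at 5012 bp with 5.01 and 4.80. Just within it, and so not members, were regions in exons of Gm20517 and Usp49 at 4998 bp (4.32 and 4.91) and of Rnf141 at 4991 bp (3.92 and 4.60).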

How the data were processed

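The deposited files are peak lists on mm10, per the labels and the read-me texts. The ratio column is the authors' fold of each peak over local background, and the deposited −log10 p column gives its significance, which grows with depth. Both are not scaled between libraries. Per the deposited read-me texts the lists derive from filtered alignments and from an exclusion file. The aligner, the peak caller, their versions and any shift for Tn5 are not given in the sources used. The joint conservative list defined the regions, each library's own lists gave values per library, and 0 columns of other samples were present.

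Peaks were merged, classed by summit with coding sequence before 3' and then 5' untranslated exons, and checked on 390 simulated positions (0 wrong). Copies were sought with blastn 2.17.0 (at least 90% identity over 75% of the window). Overlap was counted from 1 bp. Shares, medians and intervals used pandas 2.3.3 and scipy 1.17.1. The members and lists were chosen with earlier results of these data known. Named regions were the 8 coding and 8 3' untranslated of highest fold among those in both longer lists. Also named were hosts of 3 regions, members of the 9 gene lists, the 6 composites of highest fold, Nprl3, and those nearest the 5 kb limit. The 5 composites printed leave out Lars2 for its copies. Each printed window has 30 bases.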

Additional observations from a re-analysis of the deposited data

How the results depend on the processing

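Across 14 results, 43 alternative values stayed within their limits (1.5 times for counts, the interval or SD otherwise) and 29 did not. Counts of coding and 3' untranslated regions became 293 and 355 with start sites of every transcript, 1082 and 1062 in the replicated list, and 216 and 231 in the upper 50% by fold. With 1 library left out they were 232 to 242 and 255 to 273, since each library's own list is shorter. Densities fell to 9.96 and 9.76 per Mb in the upper 50% and to 10.7 to 11.2 and 10.8 to 11.5 with 1 library left out, and the 3' untranslated density was 20.4 with a 10 kb limit. Median folds were 5.40 and 5.42 from the mean of all peaks in a region. GATA shares were 30.5% and 33.5% within 50 bp of the summit, 34.8% for coding regions at midpoints, 49.1% and 52.8% in the upper 50%, and 45.3% to 50.8% and 49.8% to 53.7% in single libraries. They were below the intronic share in each of these settings. The CTCF share of 3' untranslated regions was 10.6% to 12.5% in single libraries. It was above the coding and intronic shares in each setting but below the intergenic one in the upper 50% (13% against 13.5%) and in replicate 2. Host promoters were in both longer lists for 74.1% and 78.8%. No paired analysis was possible because the libraries form 1 group. Depth is unknown, so weak regions missing from a list cannot be called closed.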
